A study of Mus musculus with 6 samples.

Results

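The 30 genes described here encode enzymes of cholesterol synthesis, the SREBP system that controls their transcription, and neighbours of that system in fatty acid synthesis, sterol transfer and sterol export. They were taken as a fixed list of gene symbols, and all 30 were found among the 47606 genes of each file. The cells were 32D, a mouse myeloid progenitor line that grows in interleukin 3 (1 ng/mL, per the labels). All of them carried dCas9-KRAB, a Cas9 that cannot cut DNA with a repressor attached. Lentivirus brought in guide sg2 (2 libraries), guide sg5 (2 libraries) or an empty vector, EV (2 libraries), and puromycin selection lasted a week. The series concerns an enhancer of Cebpe, a transcription factor gene of granulocyte maturation, and the guides are named as its knock-down. RNA was sequenced from the whole culture, so fewer cells of a type and less RNA per cell cannot be told apart. The titles number the libraries of each group 1 and 2. What the number marks (a culture, a day or a preparation) is not given in the labels, and nothing there says that the replicates were separate cultures, so a p-value here reflects only how these samples spread, which may be technical. For sg5 replicate 2 the title says sg5 while the source name and genotype say sg2, and it was counted by its title.

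Cells make cholesterol from acetyl-CoA through mevalonate, isoprenoid diphosphates, squalene and lanosterol, in a chain of enzymes of the cytosol and the endoplasmic reticulum. The genes of these enzymes are targets of the SREBP transcription factors. When sterols in the endoplasmic reticulum are scarce, SCAP carries SREBP to the Golgi, where proteases release its active part. When sterols are plentiful, INSIG proteins hold SCAP back, and oxysterols activate LXR, which induces the exporters Abca1 and Abcg1. Growing cells in culture keep the pathway on for new membrane.

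The values are FPKM, which divide fragments by transcript length and by library size, so levels can be compared between genes. The low values imply between 31800000 and 45800000 fragments a library, and 3 fragments on 1 kb of transcript would be between 0.0655 and 0.0943 FPKM. Cebpe measured 14.4 and 18.7 FPKM in the sg2 libraries and 19.4 and 22.7 FPKM in the sg5 libraries, against 42.0 and 100.4 FPKM in the EV libraries (numbers 1 and 2), lower in all 4 guide libraries. Of 10 myeloid progenitor markers, 9 had a mean of at least 1 FPKM, among them Spi1 (between 103 and 137 FPKM), while Kit was listed at 0 in every library. The 3 hepatocyte markers summed to at most 0.0592 FPKM. All 6 mast cell or basophil markers were also measured, with Fcer1a between 1081 and 2767 FPKM.

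The filter for testing, an average of 1 FPKM or more over the 6 libraries, left 12929 genes in all and 29 of the 30 on the list. Levels ran over a wide range. Scd2, a stearoyl-CoA desaturase that makes monounsaturated fatty acids, had the highest, between 392 and 599.8 FPKM. Fdps, which makes farnesyl diphosphate, was next by mean level (between 90.9 and 281 FPKM), then Srebf1 (between 61.0 and 140.0 FPKM) and Srebf2 (between 54.1 and 83.1 FPKM), the genes of the SREBP factors themselves. The ranges of Srebf1 and Srebf2 overlap across libraries, but within each library Srebf1 was above Srebf2. They were closest in sg2 replicate 2, at 74.1 and 70.3 FPKM. The lowest tested was Hsd17b7, a ketosteroid reductase gene of the demethylation steps, between 6.21 and 7.23 FPKM. The remaining tested genes had means between 13.6 (Mvk) and 57.3 FPKM (Acly).

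Abca1, the cholesterol exporter, was the gene that did not pass the filter. It was listed at 0 in sg5 and EV replicate 2, at 0.133 and 0.0126 FPKM in sg2 replicates 2 and 1, and at 0.00313 and 0.00308 FPKM in sg5 and EV replicate 1. On its longest transcript (10262 nt, GENCODE M21) and at the implied depths, the value in sg2 replicate 2 stands for about 51.2 fragments and the others above 0 for between 1 and 5. Groups were not compared for this gene, and sg2 replicate 2 was above the rest. Abcg1, the other exporter, was measured in all 6 libraries, between 16.1 and 21.4 FPKM.

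**Figure D1:**
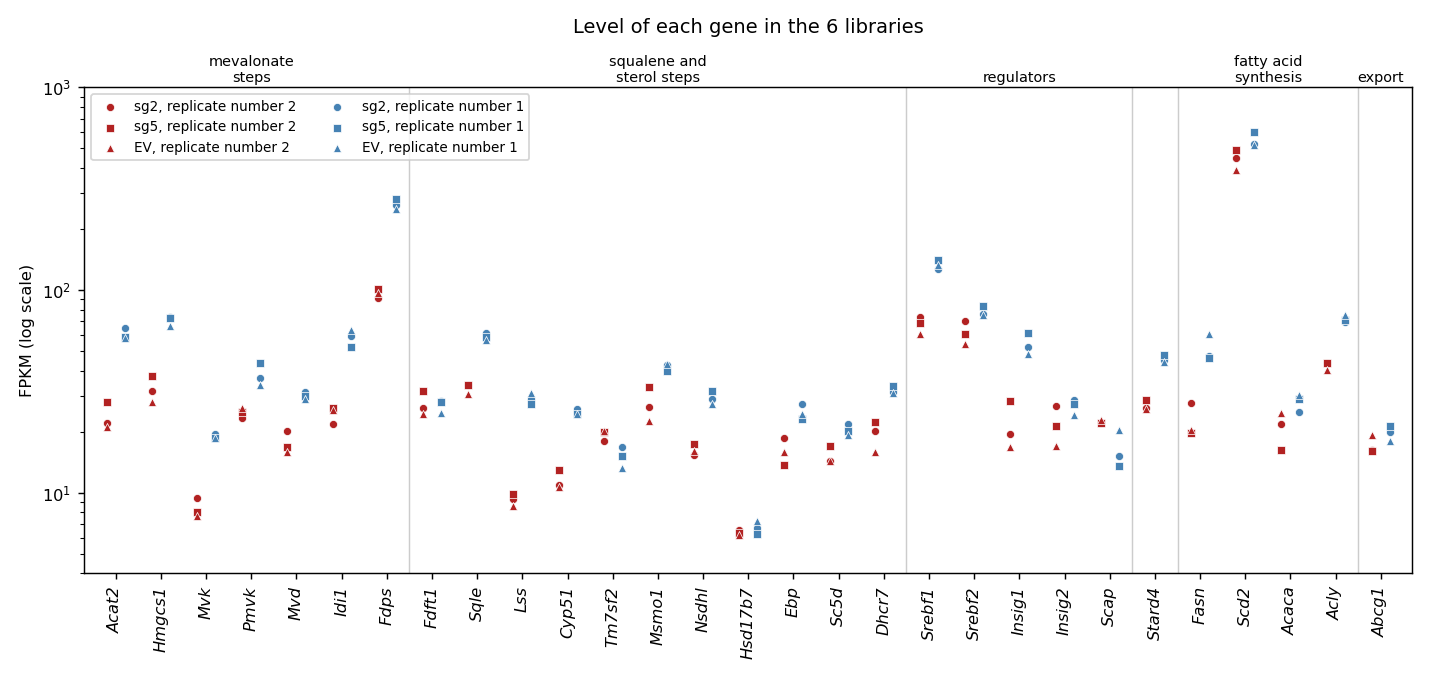
Level in FPKM (log axis) of each of the 29 tested genes in each of the 6 libraries, ordered by role; red marks number 2 libraries, blue number 1, and the symbol gives sg2, sg5 or EV. For most synthesis genes the 3 red points lie below the 3 blue ones, whatever the guide, as for Fdps (between 90.9 and 101 FPKM against between 251 and 281 FPKM).

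The widest differences in these genes, among the comparisons made here, lay between the replicate numbers. Each number holds 1 library of sg2, sg5 and EV, so the 3 number 2 libraries were compared with the 3 number 1 libraries. By limma on log2(FPKM + 1), with Benjamini-Hochberg adjustment over all 12929 genes and a threshold of 0.05, 22 of the 29 genes were lower in number 2, 2 were higher (Tm7sf2 and Scap) and 5 were not called. Over all tested genes the same test called 28.7% lower and 21.8% higher. The median log2 difference was -0.74 over the 29 genes and -0.04 over all genes. In 23 of the 29 genes all 3 number 2 libraries lay below all 3 number 1 libraries, which held for 34.1% of all tested genes. In 2, again Tm7sf2 and Scap, all 3 lay above, against 27% of all genes.

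The mevalonate and isoprenoid steps differed together, with all 7 genes called lower and a median of -1.11. Their summed level was 219.5, 243 and 221 FPKM in the number 2 libraries of sg2, sg5 and EV, against 549.7, 558 and 520.1 FPKM in number 1. That is between 39.9% and 43.6% of number 1 in each group. Acat2, the cytosolic thiolase that joins acetyl-CoA units, measured 22.0, 28.0 and 21.2 FPKM in number 2 of sg2, sg5 and EV, against 65.0, 58.7 and 57.8 FPKM in number 1 of those groups. Hmgcs1, the synthase of HMG-CoA, had 31.8, 37.6 and 28.1 FPKM in number 2 of sg2, sg5 and EV, against 73.6, 73.1 and 66.6 FPKM in number 1 of those groups. Neither gene's ranges overlapped, with log2 difference -1.32, SE 0.11, limma adjusted p = 0.000380 for Acat2 and log2 difference -1.11, SE 0.11, limma adjusted p = 0.000563 for Hmgcs1.

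Mvk, mevalonate kinase, measured 9.44, 8.04 and 7.70 FPKM in number 2 of sg2, sg5 and EV, against 19.4, 18.7 and 18.6 FPKM in number 1 of those groups, with log2 difference -1.09, SE 0.08, limma adjusted p = 0.000295. All 3 groups gave nearly the same step, since number 2 stood at 48.7%, 43.1% and 41.3% of number 1 in sg2, sg5 and EV. The kinase and decarboxylase that follow moved less. Pmvk, phosphomevalonate kinase, had 23.3, 25.0 and 26.1 FPKM in number 2 of sg2, sg5 and EV, against 36.9, 43.5 and 34.1 FPKM in number 1 of those groups and a log2 difference of -0.60 (limma adjusted p = 0.00353). Mvd, the decarboxylase that yields isopentenyl diphosphate, lay between 15.8 and 20.2 FPKM in number 2 and between 28.9 and 31.4 FPKM in number 1 (-0.75, limma adjusted p = 0.00136). Idi1, the isomerase of that product, and Fdps again showed wide gaps. Idi1 measured 21.8, 26.2 and 25.7 FPKM in number 2 of sg2, sg5 and EV, against 59.6, 52.5 and 63.3 FPKM in number 1 of those groups (log2 difference -1.22, SE 0.10, limma adjusted p = 0.000338). Fdps measured 90.9, 101 and 96.5 FPKM in number 2 of sg2, sg5 and EV, against 264, 281 and 251 FPKM in number 1 of those groups (log2 difference -1.45, SE 0.07, limma adjusted p = 9.72e-05), the smallest p on the list. Fdps lies on chromosome 3, 89093588 to 89101959 (GRCm38).

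Among the 11 genes of squalene and sterol steps, 8 were lower in number 2, 1 was higher and 2 were not called. Lss, the cyclase that turns squalene epoxide into lanosterol, differed most of all 29 genes, with 9.28, 9.82 and 8.57 FPKM in number 2 of sg2, sg5 and EV, against 29.0, 27.5 and 31.1 FPKM in number 1 of those groups. It lies on chromosome 10, 76531588 to 76557138 (GRCm38, GENCODE M21). Number 2 stood at 32.0%, 35.7% and 27.5% of number 1 in sg2, sg5 and EV (log2 difference -1.56, SE 0.08, limma adjusted p = 0.000105). Sqle, the epoxidase before it and a rate-limiting step, measured 34.0, 34.1 and 30.6 FPKM in number 2 of sg2, sg5 and EV, against 61.6, 58.9 and 56.8 FPKM in number 1 of those groups (log2 difference -0.83, SE 0.07, limma adjusted p = 0.000314). Cyp51, the lanosterol demethylase, had 10.9, 12.9 and 10.7 FPKM in number 2 of sg2, sg5 and EV, against 25.9, 24.6 and 24.4 FPKM in number 1 of those groups (log2 difference -1.06, SE 0.09, limma adjusted p = 0.000307). The ranges of these 3 genes did not overlap between the numbers.

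Later sterol steps were lower by smaller amounts. Nsdhl, a sterol dehydrogenase gene, lay between 15.4 and 17.5 FPKM in number 2 and between 27.6 and 31.9 FPKM in number 1 (log2 difference -0.82, limma adjusted p = 0.000546). Dhcr7, the last reductase of the pathway, lay between 15.9 and 22.3 FPKM in number 2 and between 31.1 and 33.8 FPKM in number 1 (-0.71, limma adjusted p = 0.00397). Msmo1, the C4 methyl oxidase, Ebp, the sterol isomerase, and Sc5d, the sterol desaturase, had log2 differences of -0.61, -0.60 and -0.41, with limma adjusted p of 0.00956, 0.00713 and 0.00935. Msmo1 was the least even of them, since sg5 stood at 33.1 FPKM in number 2 while EV stood at 22.7 FPKM.

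Fdft1, Hsd17b7 and Tm7sf2 did not share the lower level. Fdft1, squalene synthase and the step where the sterol branch starts, measured 26.1, 31.6 and 24.4 FPKM in number 2 of sg2, sg5 and EV, against 28.4, 28.1 and 24.8 FPKM in number 1 of those groups, and its groups overlapped (log2 difference 0.01, SE 0.11, limma adjusted p = 0.952). Its exons overlap those of Ctsb, a cathepsin gene on the opposite strand, by up to 774 nt in GENCODE M21. Ctsb measured 86.7, 93.8 and 94.0 FPKM in number 2 and 63.3, 69.5 and 64.0 FPKM in number 1, and whether counting used strand is not given in the sources used here, so the level of Fdft1 is uncertain. The question of strand also bears on other listed genes whose exons overlap genes on the opposite strand. Hmgcs1 (up to 458 nt) and Idi1 (323 nt) overlap genes without a value in these data. The genes that overlap Scap (327 nt) and Lss (150 nt) averaged 0.220 and 0.265 FPKM over the libraries. Akap9, which overlaps Cyp51 (166 nt), averaged 7.94 FPKM, and Rai1, which overlaps Srebf1 (109 nt), averaged 19.0 FPKM. Hsd17b7 lay between 6.21 and 6.53 FPKM in number 2 and between 6.25 and 7.23 FPKM in number 1 and was not called (limma adjusted p = 0.489).

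Tm7sf2, a sterol C14 reductase gene, measured 18.0, 19.9 and 20.1 FPKM in number 2 of sg2, sg5 and EV, against 16.9, 15.2 and 13.3 FPKM in number 1 of those groups, higher in number 2 (log2 difference 0.34, SE 0.10, limma adjusted p = 0.0278). It shares up to 532 nt of exon with Vps51, a vesicle tethering gene on the same strand, which lay between 19.3 and 23 FPKM in number 2 and between 22.9 and 25.7 FPKM in number 1. The call was lost without EV replicate 1 or 2 or sg5 replicate 1 or 2, with limma adjusted p up to 0.0826, and with the guide group as a covariate (limma adjusted p = 0.0613).

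**Figure D2:**
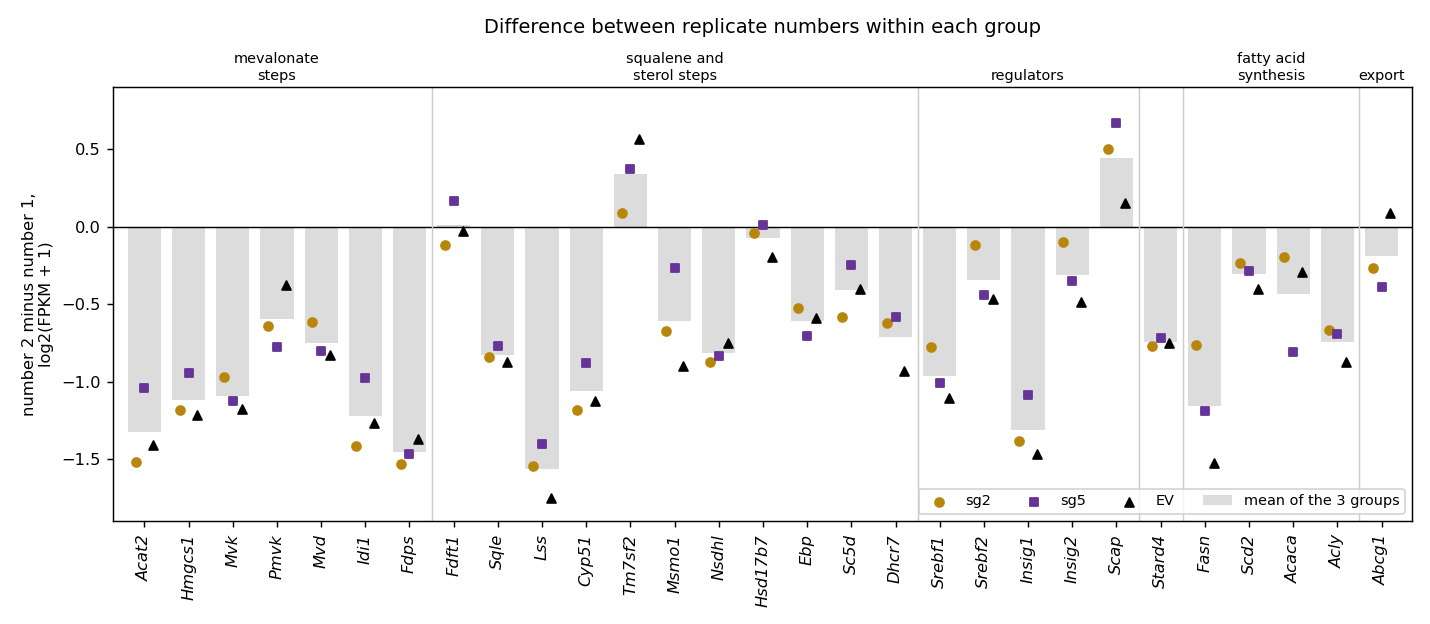
Difference between number 2 and number 1 in log2(FPKM + 1) for each tested gene, within sg2 (circles), sg5 (squares) and EV (triangles), with grey bars for the mean of the 3 groups; bars start at 0. All 7 mevalonate steps lie below 0 in all 3 groups, and Tm7sf2 and Scap lie above it in all 3.

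The regulators divided. Srebf1, the gene of the factor tied mostly to fatty acid synthesis, measured 74.1, 69.2 and 61.0 FPKM in number 2 of sg2, sg5 and EV, against 127, 140.0 and 132 FPKM in number 1 of those groups, lower in number 2 in all 3 groups (log2 difference -0.96, SE 0.08, limma adjusted p = 0.000396). Srebf2, tied mostly to cholesterol synthesis, had 70.3, 60.9 and 54.1 FPKM in number 2 of sg2, sg5 and EV, against 76.3, 83.1 and 75.1 FPKM in number 1 of those groups (log2 difference -0.34, SE 0.10, limma adjusted p = 0.0312). The Srebf2 call held without sg2 replicate 2 and was lost without each other library, with limma adjusted p up to 0.0881. Transcript starts of Srebf1 were not resolved, as the files hold 1 value a gene.

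Insig1, whose protein retains SCAP and whose gene is itself an SREBP target, measured 19.5, 28.4 and 16.8 FPKM in number 2 of sg2, sg5 and EV, against 52.4, 61.5 and 48.2 FPKM in number 1 of those groups. The gene lies on chromosome 5, 28071363 to 28078662 (GRCm38). The numbers were far apart in all 3 groups, with log2 difference -1.31, SE 0.19, limma adjusted p = 0.00220. Insig2, which also retains SCAP, lay between 17.1 and 26.7 FPKM in number 2 and between 24.3 and 28.6 FPKM in number 1. Its ranges overlapped through sg2 replicate 2, and it was not called (limma adjusted p = 0.146, and 0.0304 without that library). Scap, the escort of SREBP, lies on chromosome 9, 110333288 to 110384950 (GRCm38) and went the other way, with 22.0, 22.1 and 22.9 FPKM in number 2 of sg2, sg5 and EV, against 15.2, 13.5 and 20.5 FPKM in number 1 of those groups (log2 difference 0.44, SE 0.14, limma adjusted p = 0.0397). That call held only without EV replicate 1 when 1 library was left out, with limma adjusted p up to 0.12 without the others. Stard4, a sterol transfer gene, measured 26.1, 28.6 and 26.0 FPKM in number 2 of sg2, sg5 and EV, against 45.2, 47.7 and 44.2 FPKM in number 1 of those groups, without overlap (log2 difference -0.75, SE 0.06, limma adjusted p = 0.000373).

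Of the 4 genes of fatty acid synthesis, 3 were called lower in number 2. Acly, which makes cytosolic acetyl-CoA from citrate, measured 43.8, 43.5 and 40.6 FPKM in number 2 of sg2, sg5 and EV, against 69.9, 70.8 and 75.1 FPKM in number 1 of those groups (log2 difference -0.74, SE 0.06, limma adjusted p = 0.000307). Fasn, fatty acid synthase, had 27.6, 19.8 and 20.4 FPKM in number 2 of sg2, sg5 and EV, against 47.5, 46.3 and 60.4 FPKM in number 1 of those groups (log2 difference -1.16, SE 0.16, limma adjusted p = 0.00166), and its gap was wider in EV than in sg2. Acaca, acetyl-CoA carboxylase, lay between 16.2 and 24.6 FPKM in number 2 and between 25.1 and 30.4 FPKM in number 1, without overlap, and missed the threshold (limma adjusted p = 0.0595, and 0.035 without EV replicate 2). Scd2 lay between 392 and 491 FPKM in number 2 and between 517 and 599.8 FPKM in number 1 with a log2 difference of -0.31 (limma adjusted p = 0.0444), and that call held only without sg5 replicate 2 when 1 library was left out (limma adjusted p up to 0.118 without the others). Abcg1 lay between 16.1 and 19.3 FPKM in number 2 and between 18.1 and 21.4 FPKM in number 1 and was not called (limma adjusted p = 0.151).

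Of the 22 genes called lower, 20 kept the call without each library in turn, the exceptions being Srebf2 and Scd2. With both EV libraries left out, which leaves 4 guide libraries, 17 were called lower (18.8% of all tested genes) and Scap higher (13.6%), and the calls of Msmo1, Ebp, Sc5d, Srebf2, Scd2 and Tm7sf2 were lost (limma adjusted p between 0.0626 and 0.164). Number 2 also differed from number 1 across the transcriptome, with 50.5% of tested genes called in either direction. Genes shorter than 200 nt held between 15.4% and 21.5% of the summed FPKM in number 2 and between 6.77% and 9.67% in number 1. Macrophage markers summed to between 151 and 169 FPKM in number 2 and between 85.3 and 105 FPKM in number 1, with Mrc1 at no more than 0.0426 FPKM in any library. The 6 mast cell or basophil markers summed to between 3088 and 3636 FPKM in number 2 and between 1553 and 3162 FPKM in number 1, ranges that overlap. Among them Prss34, a mast cell and basophil protease gene, lay between 15.6 and 70.1 FPKM in number 2 and between 0.269 and 2.29 FPKM in number 1. The 10 myeloid progenitor markers summed to between 870.7 and 1007 FPKM in number 2 and between 773.8 and 1095 FPKM in number 1, which overlap, and single markers went either way. Mpo lay between 12.3 and 14.8 FPKM in number 2 and between 41.5 and 150.5 FPKM in number 1, and Cebpa between 135.7 and 216 FPKM in number 2 and between 32.2 and 70.2 FPKM in number 1. The part of these in the result was not tested. With FPKM turned to TPM over protein-coding genes, which leaves the short RNAs out, the median of all genes moved to 0.10. The genes listed here had a median of -0.56 on that scale, with 19 called lower and 2 higher (the calls of Sc5d, Srebf2 and Scd2 were lost), while the calls over all genes became 3797 higher (36.1%) and 2292 lower (21.8%), against 2819 higher and 3715 lower in FPKM.

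**Figure D3:**
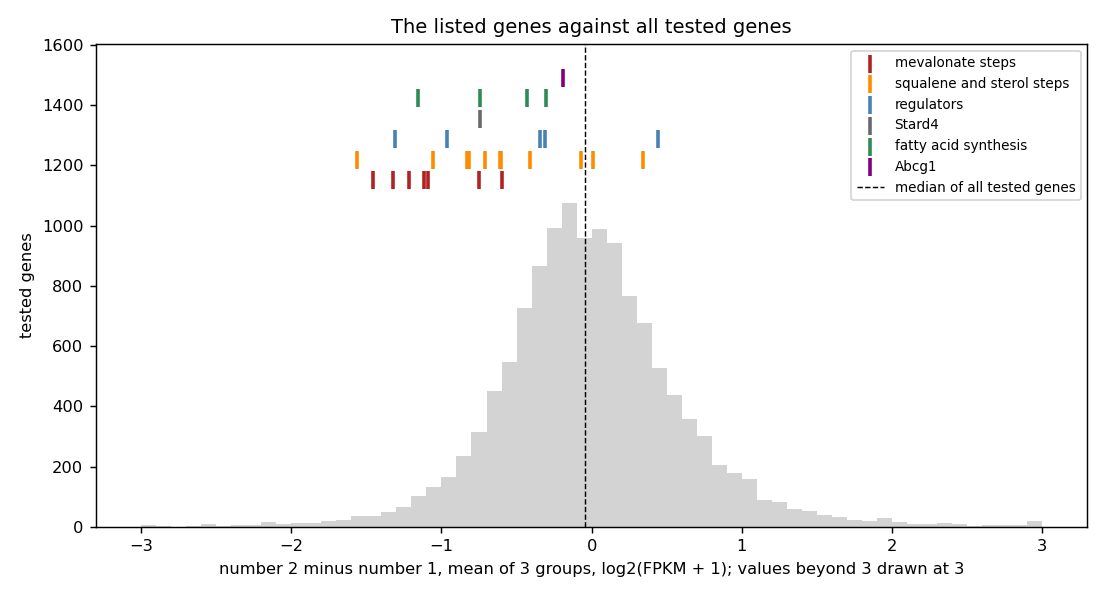
Number of tested genes (y axis) by their mean difference between number 2 and number 1 in log2(FPKM + 1) (x axis), with ticks above for the listed genes by role; the dashed line is the median of all tested genes. The 7 mevalonate steps lie between -1.45 and -0.60, in the left flank of the distribution, and Scap at 0.44 in the right.

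Lss was the listed gene farthest to the left in that distribution, with 1.07% of all tested genes at or below its difference. Fdps (1.3%), Acat2 (1.81%), Insig1 (1.83%), Idi1 (2.25%) and Fasn (2.71%) followed. Larger differences than these were thus found in other genes too.

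Other genes of sterol and fatty acid metabolism, 57 by name outside the list, were called in both directions. Of these, 56 were in the files and 45 passed the filter, of which 15 were lower and 15 higher in number 2 (28.7% and 21.8% of all tested genes), with a median of -0.14. Lower ones included Pcyt2, of phosphatidylethanolamine synthesis, Elovl1, a fatty acid elongase, Fads1 and Fads2, desaturases of polyunsaturated fatty acids, and Soat2, an acyltransferase that stores cholesterol as ester. Their log2 differences were -0.92, -1.12, -0.58, -1.40 and -1.28. Lower too were Ubxn8, Aacs, Lpcat3, Slc25a1, Mbtps2, Mbtps1, Erlin2 and Acat1, between -1.03 and -0.28. Mbtps1 and Mbtps2 encode the proteases that release SREBP in the Golgi.

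Higher in number 2 were Rxrb, a nuclear receptor partner of LXR, at 73.4, 70.1 and 77.7 FPKM in number 2 of sg2, sg5 and EV, against 41.1, 43.9 and 42.6 FPKM in number 1 of those groups (log2 difference 0.78, SE 0.06, limma adjusted p = 0.000296), and Nr1h2, which encodes LXR beta (0.33, limma adjusted p = 0.0262). Mylip, which encodes a ubiquitin ligase, had 0.59, and Npc2, a carrier of lysosomal cholesterol, 0.43. Higher too were Elovl7, Gramd1a, Mid1ip1, Osbpl1a, Elovl5, Stard5, Lpin1, Stard3, Acss2 and Lrp8, between 0.33 and 0.96. Scd1, the desaturase paralogue of Scd2, was at most 0.181 FPKM in any library.

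Promoter windows were looked up because these genes moved together between the numbers. RefSeq (GRCm38.p6) windows of 300 bases, from 250 before the start to 50 after it, were matched by symbol for 24 of the 30 genes. Scd2, Stard4, Fdft1, Fdps, Sqle and Abcg1 had no entry. A sterol regulatory element is the DNA site of SREBP, which acts with NF-Y, a factor of CCAAT boxes. A core written TCACNCCAC, searched on both strands, was found in 1 of the 24 genes, Hmgcs1, and in 1.44% of all 27025 genes with a window. No other form of the element was searched, so a gene without a match is not shown to lack a site. A CCAAT box (CCAAT or, on the other strand, ATTGG) was found in 20 of the 24 and in 41.1% of all genes. The 4 without it were Scap, Acat2, Acaca and Abca1. Those letters can occur without a site, and a gene with several starts has several chances to match. Of 32 windows of these genes 21 held the box (65.6%), against 37.4% of all 32851 windows.

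The 250 bases before the start are shown for 3 genes that were lower in number 2 (Hmgcs1, Mvk and Msmo1) and for both that were higher (Tm7sf2 and Scap), 5′ to 3′ on the gene's strand, with matches in capitals:
Hmgcs1 (chr13:119690101-119690350, plus strand): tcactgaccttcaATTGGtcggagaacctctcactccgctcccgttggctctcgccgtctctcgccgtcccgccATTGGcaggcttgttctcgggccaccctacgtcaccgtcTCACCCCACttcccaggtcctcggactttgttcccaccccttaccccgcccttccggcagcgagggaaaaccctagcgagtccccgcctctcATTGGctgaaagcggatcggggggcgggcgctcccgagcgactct
Mvk (chr5:114444019-114444268, plus strand): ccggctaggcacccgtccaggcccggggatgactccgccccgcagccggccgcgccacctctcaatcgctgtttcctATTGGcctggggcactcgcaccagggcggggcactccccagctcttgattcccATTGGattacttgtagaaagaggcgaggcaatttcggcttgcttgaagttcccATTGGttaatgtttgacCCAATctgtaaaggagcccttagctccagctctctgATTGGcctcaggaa
Msmo1 (chr8:64733579-64733828, minus strand): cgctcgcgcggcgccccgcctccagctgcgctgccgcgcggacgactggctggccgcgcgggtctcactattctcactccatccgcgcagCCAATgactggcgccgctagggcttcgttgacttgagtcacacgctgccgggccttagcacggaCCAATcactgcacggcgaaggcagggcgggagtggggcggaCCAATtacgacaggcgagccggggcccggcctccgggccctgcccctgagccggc
Tm7sf2 (chr19:6067851-6068100, minus strand): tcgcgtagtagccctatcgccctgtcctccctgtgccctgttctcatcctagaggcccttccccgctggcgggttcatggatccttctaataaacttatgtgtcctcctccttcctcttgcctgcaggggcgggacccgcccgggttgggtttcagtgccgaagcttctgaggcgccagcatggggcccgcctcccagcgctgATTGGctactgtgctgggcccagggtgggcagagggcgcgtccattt
Scap (chr9:110333038-110333287, plus strand): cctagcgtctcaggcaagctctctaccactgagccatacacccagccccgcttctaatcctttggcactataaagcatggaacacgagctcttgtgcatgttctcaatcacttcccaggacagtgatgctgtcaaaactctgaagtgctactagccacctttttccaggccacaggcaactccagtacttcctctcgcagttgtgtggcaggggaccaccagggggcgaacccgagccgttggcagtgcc
Hmgcs1 has its TCACNCCAC match at 137 bases before the start, between ATTGG matches at 176 and 45 bases. Mvk has 5 CCAAT box matches in this stretch, Msmo1 has 3 and Tm7sf2 has 1, at 47 bases. The Scap window shown is the upstream of 2 listed starts and holds neither motif. A CCAAT box is thus present in both a gene that was higher and genes that were lower.

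No listed gene passed the test between guides and EV. Of the 29, 23 had positive and 6 negative log2 differences, with a median of 0.09 against 0.00 for all genes. limma called 0 of the 29 and 0% of the 12929 tested genes. At an unadjusted p under 0.05 there were 0 of the 29 and 169 of all genes (1.31%). With the replicate number as a block, which takes the number difference out of the error, 5 genes of the 12929 were called (0.0387%), none of them listed here, and 1 of the 29 and 5.72% of all genes had an unadjusted p under 0.05. The SE of the 29 log2 differences was between 0.12 and 0.68 without the block and between 0.06 and 0.18 with it. A miss of the threshold does not show that the levels were alike. Cebpe itself was not called with or without the block, at a log2 difference of -1.75 (blocked SE 0.24, blocked limma adjusted p = 0.223).

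Insig2 was the listed gene with that p. It measured 28.6 and 26.7 FPKM in the sg2 libraries and 27.5 and 21.3 FPKM in the sg5 libraries, against 24.3 and 17.1 FPKM in the EV libraries (numbers 1 and 2). Within each number both guide libraries were above EV, but sg5 replicate 2 lay below EV replicate 1, so the groups overlapped. The log2 difference was 0.33 (SE 0.19, and 0.11 with the block), with limma adjusted p = 0.813 in the blocked fit. Insig1 had the largest difference, 0.35, with 52.4 and 19.5 FPKM in the sg2 libraries and 61.5 and 28.4 FPKM in the sg5 libraries, against 48.2 and 16.8 FPKM in the EV libraries (numbers 1 and 2). The number gap within each group was larger than the step from EV to guides, and the blocked SE was 0.17 (limma adjusted p = 0.813).

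With both numbers pooled, only Fdft1 of the listed genes had all guide libraries on one side of both EV libraries (1 of 29 higher and 0 lower, against 2.54% and 2.56% of all tested genes). It measured 28.4 and 26.1 FPKM in the sg2 libraries and 28.1 and 31.6 FPKM in the sg5 libraries, against 24.8 and 24.4 FPKM in the EV libraries (numbers 1 and 2). Its log2 difference was 0.21 (SE 0.12, limma adjusted p = 1.00, and 0.813 with the block), and the overlap with Ctsb noted above applies. Hmgcs1 averaged 54.0 ± 22.4 FPKM with guides (SD, n = 4) and 47.4 ± 27.2 FPKM in EV (SD, n = 2), with a log2 difference of 0.21. Dhcr7 averaged 27.0 ± 6.74 and 23.5 ± 10.8 FPKM in the same order (0.23). The gap between the numbers is within each of these SDs.

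Negative differences were those of Scap, Acaca, Idi1, Fasn, Hsd17b7 and Abcg1. Scap measured 15.2 and 22.0 FPKM in the sg2 libraries and 13.5 and 22.1 FPKM in the sg5 libraries, against 20.5 and 22.9 FPKM in the EV libraries (numbers 1 and 2), and the guide libraries lay well below EV in number 1 and close to it in number 2 (log2 difference -0.27, SE 0.24, blocked limma adjusted p = 0.813). Acaca measured 25.1 and 21.8 FPKM in the sg2 libraries and 29.1 and 16.2 FPKM in the sg5 libraries, against 30.4 and 24.6 FPKM in the EV libraries (numbers 1 and 2), with -0.27 (SE 0.24). The other 4 lay between -0.14 (Idi1) and -0.03 (Abcg1). The 8 markers of maturing neutrophils include Cebpe itself. They summed to between 150.0 and 207 FPKM with guides, against a range of 488 to 779 FPKM for EV. Their part in these small differences was not tested.

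**Figure D4:**
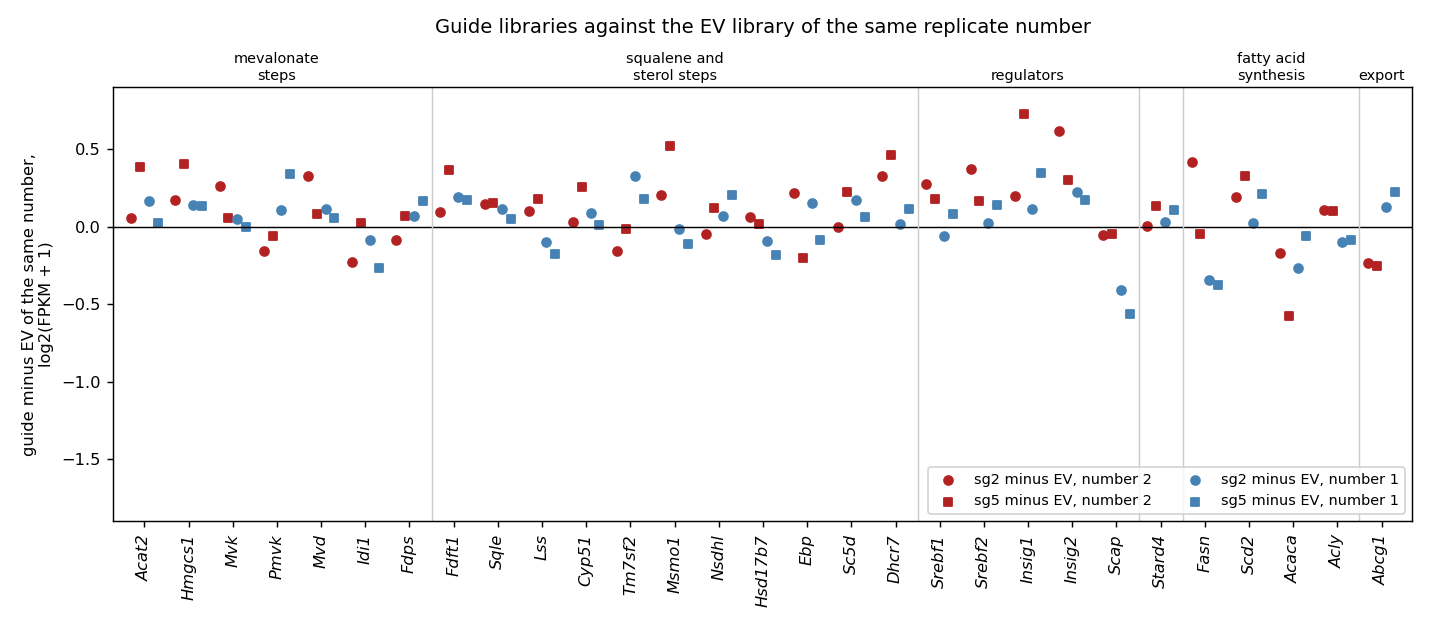
Difference of each guide library from the EV library of the same number in log2(FPKM + 1), for sg2 (circles) and sg5 (squares) in number 2 (red) and number 1 (blue), on the same y axis as the plot of number differences. Points scatter within about -0.57 to 0.73 of 0, a narrower span than the differences between the numbers, which reach -1.75.

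Each guide was then set against EV by itself, with the same EV libraries on the other side of both comparisons. limma called 0 of the 29 genes for sg2, 0 for sg5 and 0 between sg5 and sg2. Over all genes it called 0.00773%, 0% and 0%, and with the block 0.0232%, 0.0155% and 0%, again with 0 of the 29. At an unadjusted p under 0.05 there were 0, 0 and 0 of the 29 without the block (1.16%, 1.36% and 0.859% of all genes). With it there were 1 for sg2 (Insig2), 4 for sg5 (Insig1, Scd2, Hmgcs1 and Fdft1) and 2 between the guides (Ebp and Insig1), named for that p after it was seen, where all genes gave 4.3%, 8.04% and 5.29%. The blocked log2 difference of Insig1 for sg5 was 0.54 (SE 0.12, limma adjusted p = 0.519), and it was 0.16 for sg2. Insig2 had 0.42 for sg2 (SE 0.12, limma adjusted p = 0.941) and 0.24 for sg5. Ebp did not pass either, at 23.0 and 13.7 FPKM in sg5 libraries against 27.3 and 18.7 FPKM in sg2 libraries in numbers 1 and 2 (limma adjusted p = 0.854). The unblocked SE of the 29 genes reached 0.86 for these comparisons and the blocked SE 0.19. The member medians against EV of the same number were 0.10 for sg2 and 0.13 for sg5 in number 2, and 0.07 for both in number 1. For all tested genes the 4 medians lay between -0.01 and 0.01. For single genes these differences from EV ran from -0.57 (Acaca) to 0.73 (Insig1), both in sg5 of number 2. Between the guides the log2 differences of the 29 ran from -0.33 to 0.38 with a median of 0.04.

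Whether the guide difference depended on the number was tested as an interaction. limma called 0 of the 29 and 0% of all genes. At an unadjusted p under 0.05 there was 1 of the 29 (Abcg1) and 4.18% of all genes. Abcg1 was above EV with both guides in number 1 and below it with both in number 2, at 19.9 and 16.3 FPKM in the sg2 libraries and 21.4 and 16.1 FPKM in the sg5 libraries, against 18.1 and 19.3 FPKM in the EV libraries (numbers 1 and 2).

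Among the 45 other genes of sterol and fatty acid metabolism, limma called 0 between guides and EV, with 0 at an unadjusted p under 0.05. With the block it called 0, with 6 of the 45 at such a p (5.72% of all genes, and 1.31% without the block). The 4 of smallest p were Rxra, an LXR partner gene, Lpin1, a phosphatidate phosphatase gene, Rdh11, a retinol dehydrogenase gene, and Fads1. Rxra averaged 4.24 ± 0.722 FPKM with guides (SD, n = 4) and 2.89 ± 1.08 FPKM in EV (SD, n = 2), a log2 difference of 0.45 (SE 0.23). Lpin1, Rdh11 and Fads1 had 0.30, 0.24 and 0.29, with blocked limma adjusted p of 0.813, 0.813 and 0.797.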

How the data were processed

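RNA of 32D cells was sequenced as 6 TruSeq libraries on a HiSeq 4000, per the labels. The authors deposited FPKM for 47606 genes per library. Tools and builds named in the submitters' processing notes are kallisto 0.43.0, DESeq2, GRCm38 and mm10, without their roles. How FPKM was made and with which annotation is not given in the sources used here. Gene types and positions are those of GENCODE M21 (GRCm38).

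Groups follow the titles, which for sg5 replicate 2 disagree with its source name and genotype. Tests used limma 3.58.1 (R 4.3.3) with a trend on log2(FPKM + 1), for genes averaging 1 FPKM or more, in all 6 libraries, with Benjamini-Hochberg adjustment and a threshold of 0.05. Fold changes on this scale understate those of low genes, and the scripts were tested on simulated data. The main model for guides against EV pools sg2 and sg5. Those for each guide and between the guides have the 3 groups, and that for the number has the number alone. The interaction model has the pooled guides and the number. Tables were joined in Python 3.11.15 with pandas 2.3.3.

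Fragments per library were estimated from the low values of genes over 4000 nt, as multiples of 1 fragment (assumed length 200 nt). Between 91.2% and 97.8% of those values were whole within 0.15 fragments. The floors from depth cover counting error only.

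Whether the number pairs the libraries was checked: differences between the numbers correlated across genes at 0.611 (EV and sg2), 0.591 (EV and sg5) and 0.583 (sg2 and sg5), the leading principal component held 55.8% of the variance, and 6 of 6 libraries had their nearest library, by correlation, in their own number. The pairing is read from the data alone, so the replicate block was fitted as an alternative. Other alternatives were the pseudocount, the filter, the scaling, left-out libraries, the label of sg5 replicate 2 and, added after seeing the data, a block with protein-coding TPM, a guide covariate with median-ratio scaling and the EV libraries left out.

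The members and lists were chosen with earlier results of these data known. All 30 members are named, with the other pathway genes that were called or among the 4 of smallest p in guides against EV and in number 2 against 1, and Cebpe. Some of those other pathway genes are not reported here. Markers are named to describe the cells.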

Additional observations from a re-analysis of the deposited data

Results flagged for a closer look

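For 7 genes both guide libraries of number 2 moved one way against EV of that number and both of number 1 moved the other way. The difference of the guide effect, number 2 minus number 1 in log2(FPKM + 1), was 0.43 for Msmo1, 0.28 for Lss, 0.20 for Acly and 0.18 for Hsd17b7. It was -0.42 for Abcg1, -0.34 for Tm7sf2 and -0.33 for Pmvk. limma's interaction test called none of the 29 genes at the 0.05 threshold, and Abcg1 alone had an unadjusted p under it (0.0414). Tm7sf2 lay above EV with both guides in number 1, at 16.9 and 15.2 FPKM against 13.3 FPKM, and below it in number 2, at 18.0 and 19.9 FPKM against 20.1 FPKM. Pmvk did the same, and Lss and Msmo1 the reverse. EV has 1 library in each number, so each of these differences rests on single EV values, which both guides share. How many of all tested genes did the same was not counted. The 7 are therefore not read as a result about the listed genes.

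Abca1 stood apart in sg2 replicate 2, at 0.133 FPKM against at most 0.0126 FPKM in the other 3 guide libraries, a gap beyond Dixon's 95% critical value for 4 samples. Chance flags about 1 in 20 such groups, and all 30 listed genes were screened in this way. The 4 libraries also mix guides and replicate numbers, so they are not repeats of 1 condition. At the implied depth the value stands for about 51.2 fragments, against at most 5 in those 3 libraries.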

How the results depend on the processing

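Of the 22 genes called lower in number 2, 17 kept that call in all 13 alternatives. Members called in that comparison were 24, and between 20 and 23 without 1 library. The count over all genes ran from 4905 to 6067 without 1 library and was 4189 without both EV libraries, against 6534. Hsd17b7 turned to 0.094 with TPM over protein-coding genes, and Fdft1 ran from -0.096 to 0.086 without 1 library.

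No alternative called a member between guides and EV, for either guide or between the guides, and the replicate block changed no member's call. Counts over all genes moved. For guides against EV they were 5 with the replicate block, 5 with block and median-ratio scaling, 14 with block and TPM, 6 without the filter and 0 to 2 without 1 library (0 as reported). For sg2 they were 3, 3 and 24 under those blocked fits, 0 without the filter, 0 with TPM, 0 with sg5 replicate 2 counted as sg2 and 0 to 1 without 1 library (1 as reported). For sg5 they were 2, 2 and 35 with the block and 18 without the filter (0 as reported). Between sg5 and sg2 they were 3 with block and TPM and 23 without the filter (0 as reported). The cause was not tested.

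With 1 library left out, 25 guide differences changed sign in at least 1 fit, with or without the replicate block. Each such fit holds the replicate numbers in different proportions in guides and EV. Without the block, the guide value then also takes in part of the difference between the numbers. The ranges below cover both kinds of fit. How much of the sign changes this makes up was not tested. The lowest and highest log2 values over these fits were: Acat2 -0.54 to 0.86, Hmgcs1 -0.39 to 0.82, Mvk -0.49 to 0.68, Pmvk -0.13 to 0.25, Mvd -0.27 to 0.56, Idi1 -0.77 to 0.50, Fdps -0.63 to 0.74, Sqle -0.32 to 0.55, Lss -0.87 to 0.88, Cyp51 -0.46 to 0.66, Tm7sf2 -0.20 to 0.37, Msmo1 -0.30 to 0.60, Nsdhl -0.29 to 0.46, Hsd17b7 -0.14 to 0.048, Ebp -0.27 to 0.32, Sc5d -0.086 to 0.32, Dhcr7 -0.23 to 0.70, Srebf1 -0.43 to 0.67, Srebf2 -0.057 to 0.41, Insig1 -0.39 to 1.08, Stard4 -0.30 to 0.44, Fasn -0.85 to 0.68, Scd2 -0.012 to 0.39, Acly -0.43 to 0.44, Abcg1 -0.24 to 0.18. None was called. In the unblocked fits these sign changes numbered 21 without EV replicate 2, 12 without sg2 replicate 1, 12 without sg5 replicate 1, 4 without EV replicate 1, 3 without sg5 replicate 2 and 2 without sg2 replicate 2.

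With 2 libraries a group, the blocked SE of a listed gene's difference between pooled guides and EV reached 0.18. Differences far above that size could also be missed, since Cebpe at -1.75 was not called (blocked limma adjusted p = 0.223). The number comparison has 3 libraries a side and mixes whatever the number marks with the other differences between those libraries. Depth limits Abca1, which had at most 5 fragments in 5 of the 6 libraries.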
